A study of Mus musculus with 4 samples.

Results

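The 8 genes described here encode 7 molecular chaperones and ubiquitin: Hspa8, Hsp90aa1, Hsp90ab1, Hspe1, Hspd1, Hspa5, Dnaja1 and Ubb. They were picked by symbol from the 32285 features measured in 4 single-nucleus RNA-seq libraries of mouse hippocampus, and each of the 8 symbols met 1 feature. The measured values behind the choice of these genes are not recorded, so their levels in nuclei and in free RNA are given as a description. The name under which they were grouped, cytosolic chaperones and ubiquitin, covers 5 of them: Hspa5 works in the endoplasmic reticulum, and Hspd1 and Hspe1 work in mitochondria.

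The study collected the hippocampus of 2 mice trained in active place avoidance (Trained), a task in which a mouse on a turning arena learns to keep away from a zone that gives a mild shock, and of 2 mice that were not trained (Untrained). All 4 mice carried ArcCreERT2::eYFPflx, in which the promoter of the activity-dependent gene Arc drives an inducible Cre that switches on an eYFP reporter. Tissue was taken 3 days after a retention test with no recall session in between, and the comparison asks which transcripts differ while the memory is maintained. The eYFP mark and the spatial data of the same study were not analysed here, so the values below are those of all nuclei and not of the neurons that had expressed Arc. Each library is taken as 1 mouse, n = 2 in each group, and p-values of trained against untrained measure the spread between these 4 samples alone. For comparisons made within each library, p-values measure how far the within-library differences vary over the same 4 samples.

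Chaperones bind proteins that are unfolded or unstable. In the cytosol HSP70 proteins such as HSC70 take up short hydrophobic stretches and release them in a cycle driven by ATP; J-domain proteins deliver the substrate and start the hydrolysis, and HSP90 acts later on kinases, steroid receptors and other clients. Proteins that cannot be folded are tagged with ubiquitin chains and broken down by the proteasome, and in neurons this system also sets the turnover of synaptic proteins. The mRNAs of these proteins are made at high levels in unstressed brain and are translated in the cytoplasm. Heat shock factors switch on part of the family through heat shock elements, and the unfolded protein response switches on Hspa5 through endoplasmic reticulum stress elements.

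Promoters of 5 of the 8 genes could be read from RefSeq (build GRCm38.p6, 250 bases before to 50 after the start); those of Hspa8, Hsp90aa1 and Hsp90ab1 are named only. A promoter of each of 3 is shown because they hold different stress elements, while the levels of the 8 genes are described together below. Heat shock elements were searched as GAANNTTC or TTCNNGAA (2 units), GAANNTTCNNGAA or TTCNNGAANNTTC (3 units) and the corresponding 4 units, which contain the shorter ones, and the endoplasmic reticulum stress element as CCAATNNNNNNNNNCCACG, all on both strands. Capitals mark the match. The window of Hspe1, on the plus strand at chr1:55087898-55088197, held 4 units (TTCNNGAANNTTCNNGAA) from position -89 relative to the start; a second window of Hspd1, read on the minus strand at chr1:55087883-55088182, overlaps it and holds the same element from position -144, and the genes lie head to head.
Hspe1: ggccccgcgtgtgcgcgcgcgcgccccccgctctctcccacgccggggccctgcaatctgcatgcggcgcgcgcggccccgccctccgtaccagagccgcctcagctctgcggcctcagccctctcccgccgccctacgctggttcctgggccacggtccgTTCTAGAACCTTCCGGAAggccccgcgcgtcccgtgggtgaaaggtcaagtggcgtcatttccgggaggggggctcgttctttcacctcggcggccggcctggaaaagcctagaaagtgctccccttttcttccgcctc
The window of Hspa5, on the plus strand at chr2:34771840-34772139, held the endoplasmic reticulum stress element from position -65.
Hspa5: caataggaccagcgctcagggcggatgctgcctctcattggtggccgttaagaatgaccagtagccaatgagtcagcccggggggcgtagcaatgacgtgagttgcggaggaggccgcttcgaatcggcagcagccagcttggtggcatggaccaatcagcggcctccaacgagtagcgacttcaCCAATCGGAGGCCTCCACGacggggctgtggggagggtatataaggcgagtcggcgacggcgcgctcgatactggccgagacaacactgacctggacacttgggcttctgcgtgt
The window of Dnaja1, on the plus strand at chr4:40722218-40722517, held 2 heat shock units from position -124.
Dnaja1: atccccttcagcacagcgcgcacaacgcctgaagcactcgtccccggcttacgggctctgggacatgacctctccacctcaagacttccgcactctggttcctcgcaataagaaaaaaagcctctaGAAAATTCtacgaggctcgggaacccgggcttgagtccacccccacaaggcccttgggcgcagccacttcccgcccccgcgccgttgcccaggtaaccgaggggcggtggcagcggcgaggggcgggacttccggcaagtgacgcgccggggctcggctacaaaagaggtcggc
No match was found in the windows of Ubb, in the first window of Hspd1 or in the other windows of Dnaja1. Among all 32851 promoter windows of this table, 15.1% held 2 heat shock units, 0.603% held 3, 0.0244% held 4 and 0.119% held the stress element. A match is a description of these letters and says nothing of binding.

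The deposited tables held 73013 and 65863 barcodes in Trained 1 and 2 and 79810 and 41903 in Untrained 1 and 2. Their total counts of unique molecular identifiers (UMIs, each counted as 1 mRNA molecule) were 23155826 and 26369095 in Trained 1 and 2 and 39749125 and 24636056 in Untrained 1 and 2. Barcodes with at least 600 UMIs are called nuclei here, and there were 6019 and 12206 in Trained 1 and 2 and 16916 and 11969 in Untrained 1 and 2. Those with fewer than 400 UMIs were summed as the pool of free RNA, with 55744 and 47908 barcodes in Trained 1 and 2 and 51573 and 26378 in Untrained 1 and 2. Median depth per nucleus was 736 and 887 UMIs in Trained 1 and 2, against 958 and 1079 UMIs in Untrained 1 and 2, and the lowest barcode deposited held 101 UMIs in Trained 1, 174 in Trained 2, 201 in Untrained 1 and more in Untrained 2, so the pool is cut at a different depth in each library. Trained 1 therefore had the shallowest nuclei, and Untrained 1 supplied 18423764 of the UMIs in nuclei, against 4799202 from Trained 1. Median mitochondrial share per nucleus was 0.271 and 0.281% in Trained 1 and 2, against 0.445 and 0.378% in Untrained 1 and 2. Pairs of libraries shared 748 to 1596 barcode sequences, of which 17 to 65 were nuclei in both. A level below is given in CPM, the gene's UMIs scaled to a common total over the summed barcodes, and levels of different genes are not set against each other because they are not scaled to length.

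All 8 genes were detected in nuclei of every library, and every one of them stood lower in nuclei than in the pool of the same library. Together they had 2430.4 and 2232 CPM in Trained 1 and 2, against 3428 and 2539.9 CPM in Untrained 1 and 2, which rests on 11664 and 27497 UMIs in Trained 1 and 2 and 63154 and 37496 in Untrained 1 and 2. In the pool the sum was 6119 and 8476 CPM in Trained 1 and 2, against 9875 and 9039.9 CPM in Untrained 1 and 2. The sum thus differed more between nuclei and pool than among the 4 libraries within either.

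Hspa8 encodes HSC70, the constitutive cytosolic HSP70, which also uncoats clathrin vesicles at synapses. It had 516 and 518 CPM in Trained 1 and 2, against 750.4 and 570.2 CPM in Untrained 1 and 2. In the pool it had 1391 and 2087 CPM in Trained 1 and 2, against 2228 and 2120.2 CPM in Untrained 1 and 2. Both trained nuclei sums lay below both untrained ones, with Untrained 1 highest, and in the pool Trained 1 stood apart below the 3 others. Dnaja1 encodes a J-domain protein that hands substrates to HSC70, and it had 130.02 and 133 CPM in Trained 1 and 2, against 179 and 151 CPM in Untrained 1 and 2. Its pool level was 288 and 387 CPM in Trained 1 and 2 and 453 and 455 CPM in Untrained 1 and 2, and the groups did not overlap in either fraction. Over all genes, both trained libraries lay below both untrained ones in 22.1% of genes in nuclei and 20.7% in the pool.

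The cytosolic HSP90 genes are Hsp90aa1, the stress-inducible form, and Hsp90ab1, the constitutive one. Hsp90aa1 had 514 and 419 CPM in Trained 1 and 2, against 651 and 494 CPM in Untrained 1 and 2, so Trained 1 lay above Untrained 2. Hsp90ab1 had 674 and 527 CPM in Trained 1 and 2, against 724 and 656 CPM in Untrained 1 and 2, and again Trained 1 lay between the untrained libraries. In the pool Hsp90aa1 had 1312 and 1599 CPM in Trained 1 and 2, against 1852 and 1800.2 CPM in Untrained 1 and 2. Hsp90ab1 had 1547 and 1979 CPM in Trained 1 and 2, against 2019.9 and 2323 CPM in Untrained 1 and 2 there, and both pool levels were lower in each trained library than in each untrained one.

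Hspd1 and Hspe1 encode HSP60 and HSP10, the barrel and the lid of the mitochondrial chaperonin. Hspd1 had 77.5 and 72.2 CPM in Trained 1 and 2, against 93.2 and 78.6 CPM in Untrained 1 and 2, and Hspe1 had 76.3 and 60.2 CPM in Trained 1 and 2, against 106 and 78.9 CPM in Untrained 1 and 2. In the pool Hspd1 had 170.0 and 219 CPM in Trained 1 and 2 and 245 and 243 CPM in Untrained 1 and 2, and Hspe1 had 196 and 219 CPM in Trained 1 and 2 and 304 and 268 CPM in Untrained 1 and 2. The groups of this pair, which lies head to head, did not overlap in nuclei or in the pool. In nuclei, however, the 95% counting intervals of Trained 1 and Untrained 2 overlapped. They were 69.8 to 85.8 against 74.2 to 83.3 CPM for Hspd1, and 68.6 to 84.5 against 74.4 to 83.6 CPM for Hspe1. Hspa5 encodes BiP, the HSP70 of the endoplasmic reticulum and a regulator of the unfolded protein response. It had 81.3 and 77.8 CPM in Trained 1 and 2, against 108 and 95.1 CPM in Untrained 1 and 2, and in the pool 203 and 271 CPM in Trained 1 and 2 and 314 and 307 CPM in Untrained 1 and 2, also without overlap.

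Ubb, a polyubiquitin gene whose product is cut into single ubiquitin units, differed from the 7 chaperone genes in its spread. It had 361 and 425 CPM in Trained 1 and 2, against 817 and 417 CPM in Untrained 1 and 2, and in the pool 1013 and 1714 CPM in Trained 1 and 2, against 2461 and 1523 CPM in Untrained 1 and 2. Untrained 1 stood far above the other libraries in both fractions, and without it Trained 2 and Untrained 2 were close. Of the UMIs of all 8 genes in nuclei, Ubb held 14.8 and 19.0% in Trained 1 and 2, against 23.8 and 16.4% in Untrained 1 and 2. In the pool its share was 16.6 and 20.2% in Trained 1 and 2, against 24.9 and 16.8% in Untrained 1 and 2, so the make-up of the 8 differed between libraries in the same way in both fractions. The share of Hspa8 lay between 21.2 and 23.2% in nuclei and between 22.6 and 24.6% in the pool.

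**Figure D1:**
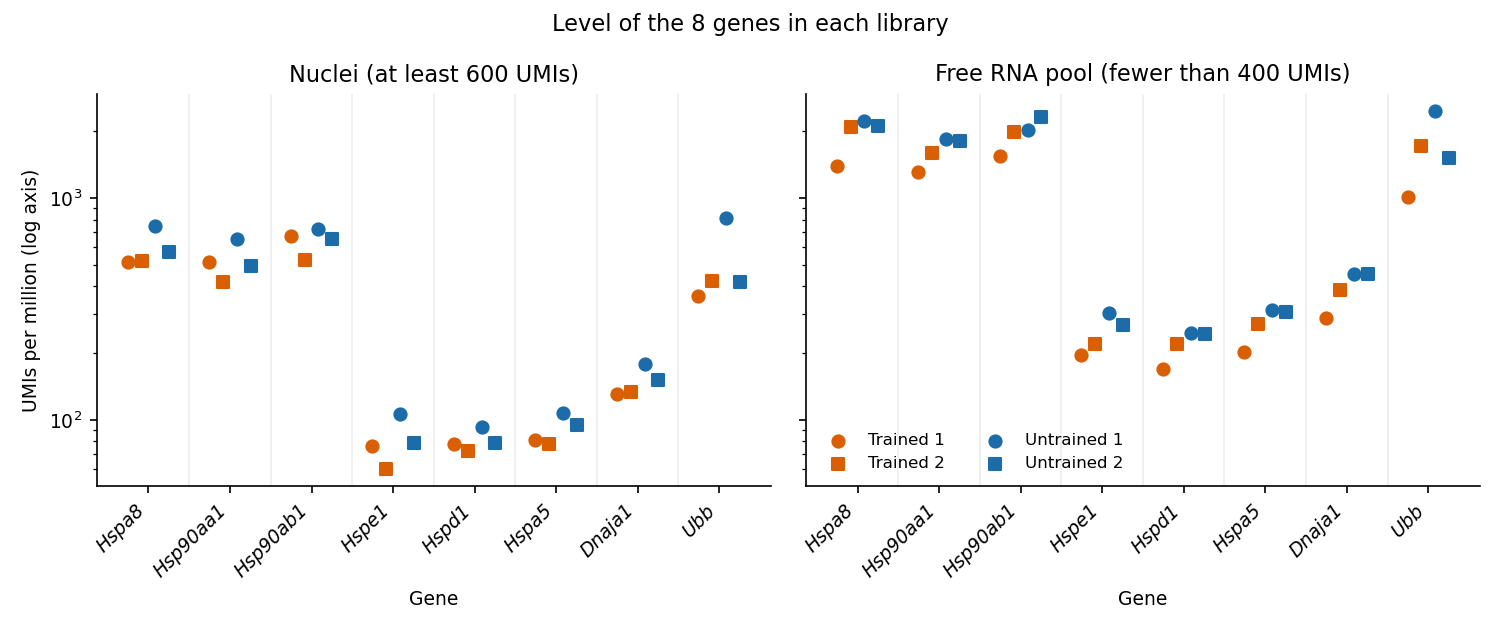
Level of each of the 8 genes in CPM (log axis) in nuclei and in the pool of free RNA, 1 point for each library, with trained libraries left of untrained ones. All 8 genes lie lower in nuclei than in the pool of the same library, and Ubb in Untrained 1 (817 CPM in nuclei) stands above the 3 other libraries.

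The ratio of the nuclei level to the pool level of all 8 genes together was 0.397 and 0.263 in Trained 1 and 2 and 0.347 and 0.281 in Untrained 1 and 2. Single genes ranged from 0.248 to 0.456, with Trained 1 highest for every gene. In edgeR, with the library as a block (n = 4 pairs), 6998 of 17923 genes (39%) were called lower in nuclei and 6590 (36.8%) higher. All 8 genes were among the lower ones, and nothing is read from that count because levels in nuclei and pool may have entered the choice of the genes. The fitted log2 difference, nuclei minus pool, was -1.77 for Ubb (SE 0.15), -1.75 for Hspa8 (SE 0.16) and -1.69 for Hsp90aa1 (SE 0.16). It was -1.66 for Hspe1, -1.63 for Hsp90ab1 and -1.62 for Hspa5. Hspd1 at -1.47 and Dnaja1 at -1.43 were the least displaced. Only 0.915% of all genes tested had a lower difference than Ubb, and 8.60% had a lower one than Dnaja1.

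Most relatives of the 8 genes were also lower in nuclei, with list medians nearer to 0. The lists named here were chosen with earlier results of these data known, and each count stands against the 39% of all genes called lower. Of the HSP70 and HSP110 relatives, 8 of 9 were called lower, with a list median of -1.28 against -1.64 for the 8 genes and -0.03 for all genes. The J-domain co-chaperones had 9 of 13 lower (median -0.90), and the HSP90 and HSP70 co-chaperones, which pass clients on or control the ATP cycle, had 17 of 20 (median -0.99). All 14 tested genes of the cytosolic chaperonin and prefoldin, which fold actin and tubulin, were lower (median -1.47). Chaperones of the endoplasmic reticulum had 15 of 16 lower (median -1.20) and mitochondrial chaperones and proteases 6 of 9 (median -0.56).

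On the ubiquitin side, 16 of 20 genes for ubiquitin and for the enzymes that activate and conjugate it were called lower in nuclei, with a median of -0.84, and 10 of 12 deubiquitinases, with a median of -0.51. The small heat shock proteins had 5 of 5 lower, and of the 4 heat shock factor genes 1 was lower and 1 higher. A pair of comparison lists frames these values. All 19 tested abundant cytoplasmic mRNAs, such as Actb (beta-actin) and Gapdh (a glycolytic enzyme), were lower with a median of -1.73, close to that of the 8 genes. Of 10 RNAs known to stay in the nucleus, 7 were higher and 1 lower, with a median of 1.44. All 13 mitochondrially encoded mRNAs and 12 of 13 genes induced by activity or by dissociation were lower.

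The number of UMIs of these genes per barcode changed by less than the depth of the barcode did. For the 8 genes together, barcodes of 250 to under 400 UMIs carried on average 1.54 and 2.25 UMIs in Trained 1 and 2, against 3.17 and 2.80 UMIs in Untrained 1 and 2. Nuclei of 600 to under 800 UMIs carried 1.83 and 2.05 UMIs in Trained 1 and 2, against 3.42 and 2.88 UMIs in Untrained 1 and 2, and nuclei of at least 1500 UMIs carried 2.94 and 2.81 UMIs in Trained 1 and 2, against 4.52 and 3.62 UMIs in Untrained 1 and 2. In Trained 2, nuclei of 600 to under 800 UMIs thus held fewer UMIs of these genes than the shallower pool barcodes did. As a level the same values fell steeply with depth: barcodes of 250 to under 400 UMIs had 4882 and 7603 CPM in Trained 1 and 2, against 9888 and 9039.9 CPM in Untrained 1 and 2, and nuclei of at least 1500 UMIs had 1689 and 1442 CPM in Trained 1 and 2, against 2285 and 1746 CPM in Untrained 1 and 2. RNAs retained in the nucleus did the opposite, at 35.8 and 41.9 UMIs in Trained 1 and 2, against 32.8 and 36.0 UMIs in Untrained 1 and 2, per nucleus of 600 to under 800 UMIs. In nuclei of at least 1500 UMIs they had 101 and 136 UMIs in Trained 1 and 2, against 116 and 139 UMIs in Untrained 1 and 2. The deepest bin held 89 and 1237 nuclei in Trained 1 and 2, against 2461 and 2639 nuclei in Untrained 1 and 2.

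**Figure D2:**
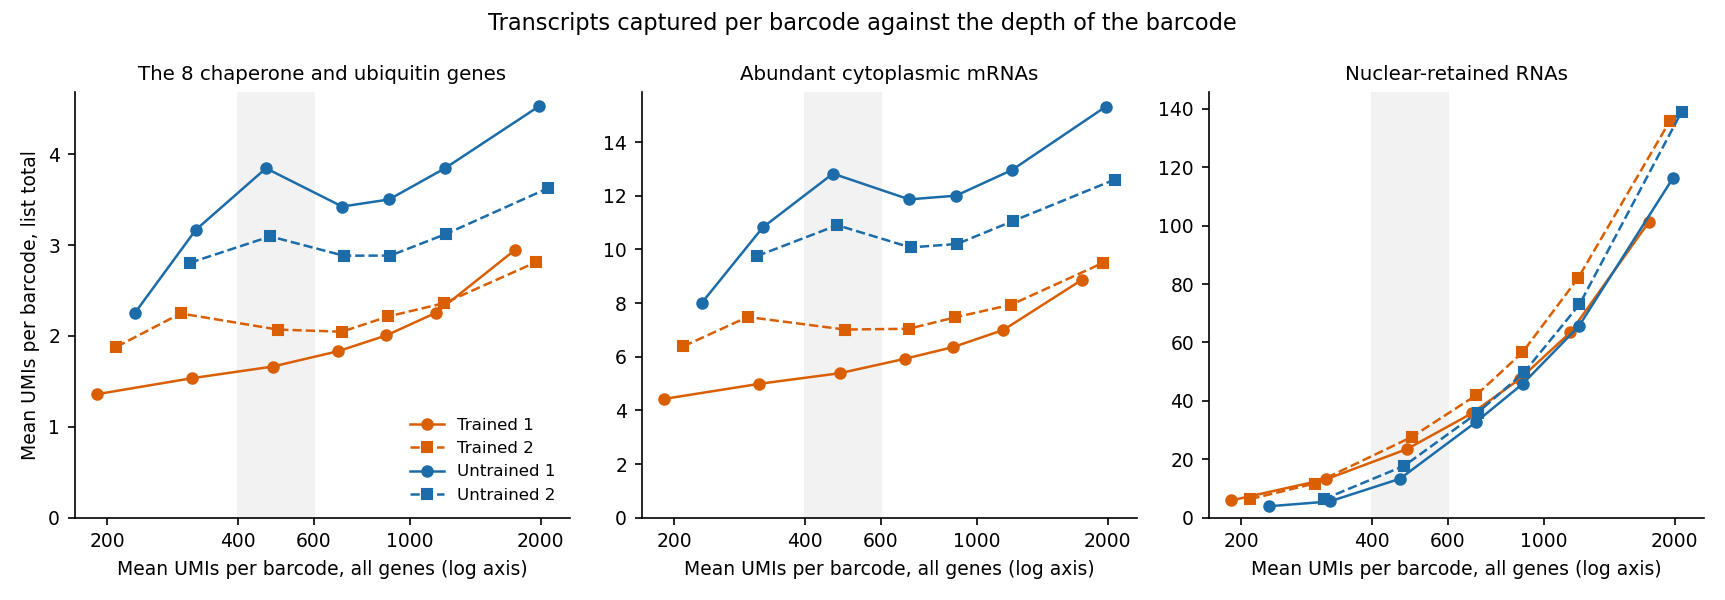
Mean UMIs per barcode (vertical axis) of the 8 genes together, of the abundant cytoplasmic mRNAs and of the nuclear-retained RNAs, in bins of barcode depth placed at their mean depth (horizontal log axis), 1 line for each library; the grey band marks barcodes of 400 to under 600 UMIs, in neither the pool nor the nuclei. For the 8 genes the trained lines run below the untrained ones in every bin and rise by less than the depth does, while the lines of the nuclear-retained RNAs climb steeply.

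The UMIs that separate nuclei of 600 to under 800 UMIs from those of at least 1500 were then taken as a sum of their own, and the level of each gene in these added UMIs was set against its level in the pool. In percent of the pool level it was 17.1 and 7.19% in Trained 1 and 2, against 8.69 and 5.97% in Untrained 1 and 2, for the 8 genes together. The median gene stood at 83.7 and 79.8% in Trained 1 and 2, against 73.5 and 73.8% in Untrained 1 and 2, taken over 4949 and 5291 genes in Trained 1 and 2 and 5275 and 5376 in Untrained 1 and 2. Hspa8 stood at 16.2 and 5.33% in Trained 1 and 2, against 6.69 and 4.09% in Untrained 1 and 2. Ubb stood at 23.0 and 3.22% in Trained 1 and 2, against 5.32 and 2.91% in Untrained 1 and 2, so in both the value of Trained 1 was well above the 3 others. Hspd1 stood at 10.52 and 19.4% in Trained 1 and 2, against 12.1 and 13.2% in Untrained 1 and 2. Dnaja1 stood at 16.2 and 17.4% in Trained 1 and 2, against 14.5 and 9.03% in Untrained 1 and 2. Both, like Hsp90aa1, were above the 8 genes together in Trained 2 and in both untrained libraries and below them in Trained 1. Above them in every library were Hspa5 and Hsp90ab1. Hspa5 had 18.5 and 15.3% in Trained 1 and 2, against 10.3 and 10.4% in Untrained 1 and 2. Hsp90ab1 had 18.4 and 7.84% in Trained 1 and 2, against 13.0 and 7.46% in Untrained 1 and 2.

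Most relatives of the 8 genes stood higher in the added UMIs. In percent of the pool level, the HSP70 and HSP110 relatives stood at 45.2 and 42.8% in Trained 1 and 2, against 40.8 and 42.0% in Untrained 1 and 2. The J-domain co-chaperones stood at 50.5 and 57.6% in Trained 1 and 2, against 55.5 and 52.8% in Untrained 1 and 2, and the ubiquitin and ubiquitin enzyme genes at 61.7 and 54.6% in Trained 1 and 2, against 53.8 and 53.6% in Untrained 1 and 2. The cytosolic chaperonin and prefoldin genes were low, at 32.6 and 14.9% in Trained 1 and 2, against 13.4 and 10.9% in Untrained 1 and 2. Abundant cytoplasmic mRNAs stood at 13.9 and 6.83% in Trained 1 and 2, against 7.96 and 5.85% in Untrained 1 and 2, about the values of the 8 genes, and RNAs retained in the nucleus at 169.9 and 221% in Trained 1 and 2, against 371 and 366% in Untrained 1 and 2. How much of the level of the 8 genes in a nucleus is RNA taken up from the pool was not tested.

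**Figure D3:**
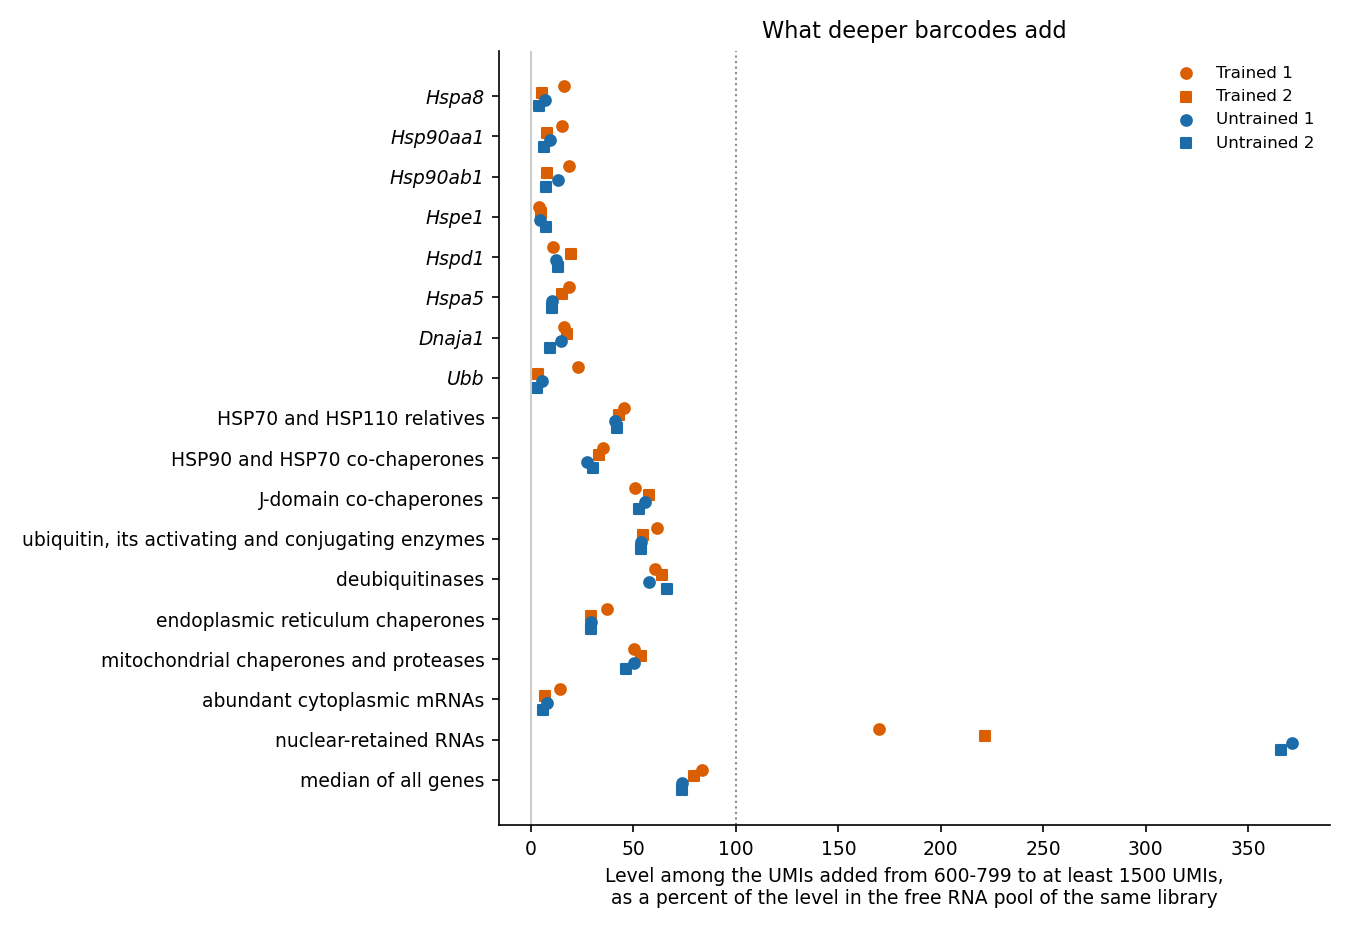
Level in the UMIs added between nuclei of 600 to under 800 and of at least 1500 UMIs, as a percent of the level in the free RNA pool (horizontal axis, dotted line at 100%), for each of the 8 genes, for 9 lists and for the median gene, 1 point for each library. No point of the 8 genes lies above 23%, whereas the HSP70 and HSP110 relatives, the J-domain co-chaperones and the ubiquitin enzyme genes lie at 40.8% or above, and the nuclear-retained RNAs above 100%.

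The share of nuclei with a UMI of at least 1 of the 8 genes was 84.0 and 88.0% in Trained 1 and 2, against 96.6 and 95.03% in Untrained 1 and 2. The share of pool barcodes, which are shallower, was 74.9 and 85.4% in Trained 1 and 2, against 94.7 and 93.6% in Untrained 1 and 2. Hspa8 was found in nuclei at shares of 33.7 and 40.4% in Trained 1 and 2, against 54.7 and 49.9% in Untrained 1 and 2, and in pool barcodes at 27.5 and 38.4% in Trained 1 and 2, against 49.8 and 47.9% in Untrained 1 and 2. For Ubb the shares in nuclei were 24.6 and 34.2% in Trained 1 and 2, against 57.8 and 39.7% in Untrained 1 and 2, and in pool barcodes 20.9 and 32.9% in Trained 1 and 2, against 53.1 and 37.6% in Untrained 1 and 2. Thinning each nucleus to 600 UMIs left the share with any of the 8 at 76.2 and 74.5% in Trained 1 and 2, against 86.7 and 79.3% in Untrained 1 and 2. Pool barcodes held these UMIs nearly as often as nuclei, so a UMI in a nucleus is not read as expression in that nucleus. Whether some pool barcodes were themselves nuclei was not tested.

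Trained and untrained nuclei were compared on the summed counts of each library in edgeR. All 8 genes had lower fitted levels in trained nuclei and none passed the test, as was true of every gene: 0 of 17455 genes (0%) were called by edgeR, 1094 were under 0.05 before adjustment of p, and DESeq2 called 4. The sum of the 8 averaged 2331 ± 140.3 CPM in trained nuclei and 2984 ± 628 CPM in untrained nuclei (SD, n = 2 each). In 5 of the 8 genes both trained libraries lay below both untrained ones (Hspa8, Hspd1, Hspe1, Hspa5 and Dnaja1), against 22.1% of all genes. For Hspd1 and Hspe1 the counting intervals of Trained 1 and Untrained 2 overlapped. The median log2 difference of the 8 was -0.30, against 0.00 over all genes. In counts summed over all nuclei of a library, fewer cells that express a gene and less of its RNA in each cell cannot be told apart.

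The fitted difference, trained minus untrained, was largest for Ubb at -0.61 (SE 0.26, edgeR adjusted p = 0.792). It was -0.41 for Hspe1 (SE 0.17, edgeR adjusted p = 0.792), -0.32 for Hspa5 (SE 0.13) and -0.32 for Hspa8 (SE 0.15). Dnaja1 at -0.29, Hsp90aa1 at -0.26, Hsp90ab1 at -0.17 and Hspd1 at -0.17 had adjusted p-values of 0.794 to 0.868 in edgeR. The value of Ubb hung on the untrained libraries: it was -0.06 without Untrained 1, and -1.02 without Untrained 2, where edgeR called it (adjusted p = 0.0187, among 189 genes). With no filter on low counts edgeR also called Ubb, at -0.63 (adjusted p = 0.00292). The other genes moved with single libraries too, and none of them was called by edgeR with a library left out. Without Untrained 1, Hspa8 stood at -0.12, Hsp90aa1 at -0.06, Hspe1 at -0.20, Hspd1 at -0.05, Hspa5 at -0.24, Dnaja1 at -0.17 and Hsp90ab1 at -0.11. Without Untrained 2, Hspa8 stood at -0.50, Hsp90aa1 at -0.45, Hspe1 at -0.61 and Hspd1 at -0.28. Hsp90ab1 was -0.34 without Trained 1 and -0.011 without Trained 2.

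**Figure D4:**
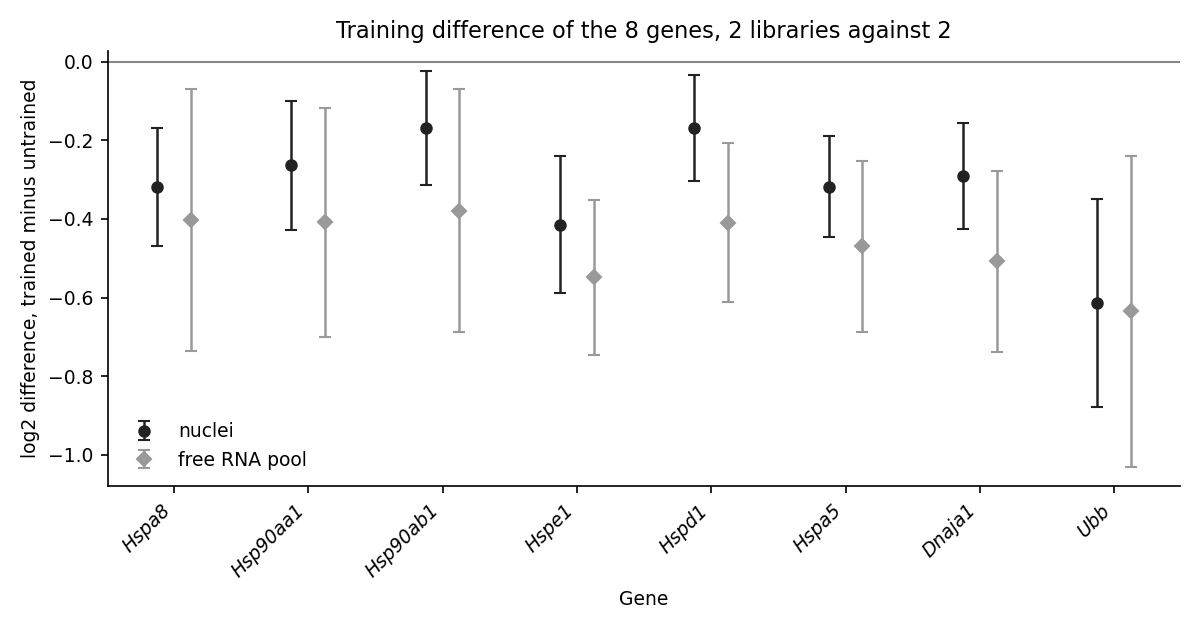
Log2 difference, trained minus untrained, of each of the 8 genes in nuclei and in the pool of free RNA from edgeR, with bars of 1 SE (n = 2 libraries in each group). Every point lies below 0, no adjusted p passed 0.05, and Ubb has the lowest point in both fractions, -0.61 in nuclei and -0.64 in the pool.

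For the 8 genes the free RNA pool differed between the groups in the same direction as the nuclei. The pools also differed in nuclear-retained RNAs, at 36244 and 33812 CPM in Trained 1 and 2, against 17481.5 and 20478 CPM in Untrained 1 and 2. Their level in nuclei divided by that in the pool was 1.48 and 1.94 in Trained 1 and 2, against 3.06 and 2.98 in Untrained 1 and 2. What part this has in the pool comparison and the interaction was not tested. The 8 genes together averaged 7297 ± 1666 CPM in trained pools and 9458 ± 591 CPM in untrained pools (SD, n = 2 each), and 7 of the 8, all but Ubb, were lower in both trained pools than in both untrained ones, against 20.7% of all genes. For Hspa8 and Hsp90ab1 the counting intervals of the nearest trained and untrained pools overlapped. The fitted differences ran from -0.64 for Ubb (SE 0.39) and -0.55 for Hspe1 (SE 0.20, edgeR adjusted p = 0.227, the lowest of the 8) to -0.38 for Hsp90ab1 (SE 0.31). EdgeR called 0 of 16457 genes (0%), while 3120 were under 0.05 before adjustment of p. DESeq2 called 270. Without Trained 2 the differences were larger for Ubb (-1.11), Dnaja1 (-0.78), Hspa8 (-0.78), Hspa5 (-0.74), Hspe1 (-0.68) and Hspd1 (-0.65). Without Trained 1 the differences were smaller, at -0.29 for Ubb, -0.12 for Hspa8, -0.26 for Hsp90aa1, -0.19 for Hsp90ab1, -0.22 for Hspd1, -0.26 for Hspa5, -0.29 for Dnaja1 and -0.45 for Hspe1, and Ubb was -0.21 without Untrained 1 and -0.98 without Untrained 2.

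Whether the difference between groups was itself different in nuclei and in the pool was tested as an interaction. None of the 8 passed: the values, nuclei minus pool, lay between 0.08 for Ubb (SE 0.35) and 0.24 for Hspd1 (SE 0.23), with edgeR adjusted p of 0.875 to 0.968. EdgeR called 0 of 17923 genes (0%), 1504 were under 0.05 before adjustment of p, and by DESeq2 19 were called. Without Trained 2 the value was larger for Hspd1 (0.48) and Hsp90ab1 (0.56). The lower level of the 8 genes in trained nuclei was therefore not shown to differ from that in the pool.

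Counted as mean UMIs per nucleus with no scaling to depth, all 8 genes were lower in both trained libraries than in both untrained ones. Hspa8 had 0.411 and 0.523 in Trained 1 and 2, against 0.817 and 0.703 in Untrained 1 and 2, and Hsp90ab1 had 0.538 and 0.532 in Trained 1 and 2, against 0.788 and 0.809 in Untrained 1 and 2. Ubb had 0.288 and 0.429 in Trained 1 and 2, against 0.890 and 0.514 in Untrained 1 and 2. Read against all genes the count stands beside a high background: 60.5% of 17455 genes were lower in both trained libraries on this scale. The median depth of a nucleus was also lower in both trained libraries.

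None of the related lists held a called gene in trained against untrained nuclei, where no gene was called at all. The lists whose medians lay lowest were the mitochondrially encoded mRNAs (-0.47), the abundant cytoplasmic mRNAs (-0.41) and the cytosolic chaperonin and prefoldin (-0.24). Among single genes, Gapdh had -0.60 and Pfdn5, a prefoldin subunit, -0.50. Medians near 0 were found for the HSP70 and HSP110 relatives (-0.03), the J-domain co-chaperones (-0.02) and the HSP90 and HSP70 co-chaperones (-0.06), which lie close to the 0.00 of all genes. Dnajb1, a stress-inducible J-domain gene, had 10.8 and 9.01 CPM in trained nuclei, against 14.1 and 12.6 CPM in untrained nuclei. Hspa2, an HSP70 relative, stood at 0.28, and Bag1, a nucleotide exchange factor of HSP70, at -0.50.

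Uchl1, a deubiquitinase abundant in neurons, had 214 and 182 CPM in trained nuclei, against 288 and 183 CPM in untrained nuclei. The medians of the ubiquitin and ubiquitin enzyme genes, of the deubiquitinases and of the genes induced by activity or by dissociation lay within 0.1 of 0. Chaperones of the endoplasmic reticulum had a median of -0.18, with Pdia6, a protein disulfide isomerase, at -0.45 and Manf, a secreted stress-response protein, at -0.31. Mitochondrial chaperones and proteases had a median of -0.03, with Grpel1, a nucleotide exchange factor, at -0.43. Heat shock factor genes had a median of -0.12 over 4 genes, with Hsf1 at 0.22, and the small heat shock proteins had -0.13 over 4. RNAs retained in the nucleus had 0.11 in nuclei and 0.60 in the pool, where the abundant cytoplasmic mRNAs had -0.51. What part these lists have in the lower level of the 8 genes was not tested.

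Nuclei were placed in classes by markers that hold none of the 8 genes. The share of nuclei assigned was 20.3 and 27.4% in Trained 1 and 2, against 24.8 and 32.1% in Untrained 1 and 2, and 8 classes had at least 30 nuclei in every library. Each list of markers kept out of the assignment was higher in its own class than in any other, at 1.46 to 6.64 times its level over all nuclei in these 8 classes. In cortical excitatory-like nuclei, however, the CA3 pyramidal markers (1.71 times) exceeded the cortical ones (1.58 times) and the thalamic ones had 1165 CPM, against 777 CPM over all nuclei, so that name is weakly borne out by its markers. Over the 4 libraries the 8 genes together were highest in astrocyte-like nuclei, at 3089 ± 805 CPM (SD, n = 4), and lowest in CA3 pyramidal-like nuclei, at 1942 ± 339 CPM. Astrocyte-like nuclei were highest in 3 of the 4 libraries. In Trained 1 they had 2297 CPM, below several classes. Among these were CA1 pyramidal-like (2660.0 CPM, the highest) and dentate granule-like nuclei (2449 CPM). Between them came oligodendrocyte precursor-like (2564 ± 636), dentate granule-like (2559 ± 389), cortical excitatory-like (2527 ± 389.9), inhibitory neuron-like (2406 ± 511), CA1 pyramidal-like (2362 ± 316) and thalamic excitatory-like nuclei (2172 ± 435). Neighbours in this order differed by less than their SD, which includes the spread between libraries that all classes share. Within libraries, CA3 pyramidal-like nuclei were lowest in each, at 2157 and 1568 CPM in Trained 1 and 2, against 2293 and 1751 CPM in Untrained 1 and 2. Thalamic neurons lie outside the hippocampus, the labelled tissue, and nuclei with their markers were found in every library.

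Levels ran against depth, with the cortical class as an exception. Mean depth was 968 UMIs in astrocyte-like and 1426 UMIs in CA3 pyramidal-like nuclei, while the mean number of UMIs of the 8 genes per nucleus was 3.003 in astrocyte-like and 2.74 in CA3 pyramidal-like nuclei. Within a library, the highest class level divided by the lowest was 1.23 and 1.64 in Trained 1 and 2, against 1.77 and 1.95 in Untrained 1 and 2. The number of UMIs per nucleus spanned 1.75 to 2.15 over the classes of Trained 1, 2.15 to 2.60 in Trained 2, 3.77 to 4.12 in Untrained 1 and 3.13 to 3.47 in Untrained 2. The library, more than the class, thus separated nuclei by their UMIs of these genes. The deepest class mean divided by the shallowest was 1.25 and 1.36 in Trained 1 and 2, against 1.71 and 1.85 in Untrained 1 and 2.

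**Figure D5:**
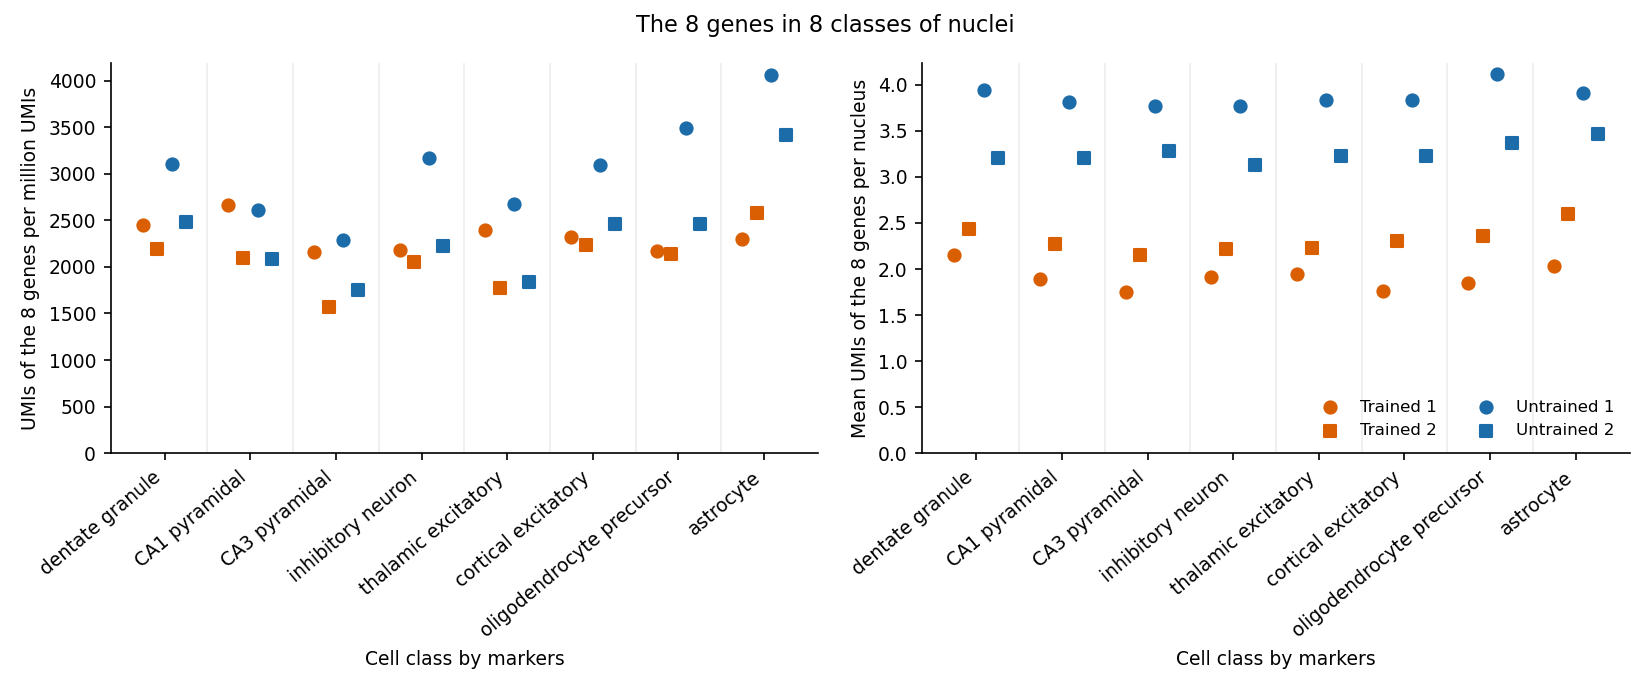
The 8 genes together in the 8 marker-defined classes, as a level in CPM and as mean UMIs per nucleus, 1 point for each library. Astrocyte-like nuclei have the highest mean level (3089 CPM) and CA3 pyramidal-like nuclei the lowest (1942 CPM), whereas UMIs per nucleus differ by library more than by class.

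Neuronal-like nuclei (dentate granule, CA1, CA3 and inhibitory) were compared with glial-like nuclei (oligodendrocyte, its precursor, astrocyte and microglia) with the library as a block. In neuronal-like nuclei the 8 genes together had 2311 and 2045 CPM in Trained 1 and 2, against 2972 and 2251 CPM in Untrained 1 and 2. In glial-like nuclei they had 2208 and 2413 CPM in Trained 1 and 2, against 3869.7 and 2975 CPM in Untrained 1 and 2. Neuronal-like nuclei were below glial-like ones in 3 of the 4 libraries. EdgeR called 1292 of 10468 genes (12.3%) lower and 1187 (11.3%) higher in neuronal-like nuclei, and of the 8 genes it called 1, Hsp90aa1, a share near that background. In neuronal-like nuclei Hsp90aa1 had 454 and 384 CPM in Trained 1 and 2, against 549 and 435 CPM in Untrained 1 and 2. In glial-like nuclei it had 486 and 439 CPM in Trained 1 and 2, against 786 and 582 CPM in Untrained 1 and 2, a log2 difference of -0.28 (SE 0.10, edgeR adjusted p = 0.0270), lower in neuronal-like nuclei in 4 of 4 libraries. None of the 8 was called by DESeq2, without the block, with no filter, after thinning, in nuclei of 600 to under 800 UMIs, or without Untrained 1 or Untrained 2. In these settings Hsp90aa1 stayed below 0, and over all settings run its difference lay between -0.31 and -0.19. Without Trained 1, 4 were called: Hspa8 (-0.25), Hsp90aa1 (-0.31), Hsp90ab1 (-0.28) and Ubb (-0.29). The share of all genes called in that fit is not given here, so nothing is read from the count. Without Trained 2, Hspd1 was called (-0.43, edgeR adjusted p = 0.0384) and Hsp90aa1, at -0.31, was not.

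The other values, neuronal-like minus glial-like, were -0.31 for Hspd1, -0.23 for Ubb, -0.22 for Hsp90ab1, -0.21 for Hspa8, -0.19 for Dnaja1, -0.11 for Hspa5 and 0.02 for Hspe1, none past the test with all 4 libraries. Neuronal-like nuclei were deeper in 3 of the 4 libraries, with mean depths of 841 and 1123 UMIs in Trained 1 and 2, against 1289.5 and 1416 UMIs in Untrained 1 and 2. Glial-like nuclei had 873 and 1023 UMIs in Trained 1 and 2, against 1030.0 and 1171 UMIs in Untrained 1 and 2. Neuronal-like nuclei held on average 1.94 and 2.30 UMIs in Trained 1 and 2, against 3.83 and 3.19 UMIs in Untrained 1 and 2, of the 8 genes together, and glial-like nuclei 1.93 and 2.47 UMIs in Trained 1 and 2, against 3.99 and 3.48 UMIs in Untrained 1 and 2. Of the abundant cytoplasmic mRNAs, 6 of 19 were lower and 0 higher in neuronal-like nuclei, and of the mitochondrially encoded mRNAs 8 of 13 were lower. After thinning to 600 UMIs the difference of Hsp90aa1 was -0.31, and in nuclei of 600 to under 800 UMIs it was -0.22, neither of them called. Thinning draws UMIs at random and keeps the make-up of each nucleus, so it cannot remove a fall of level with depth.

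Within classes, training was tested in 5 of the 8 classes with at least 30 nuclei in every library; oligodendrocyte precursor-like, thalamic excitatory-like and cortical excitatory-like nuclei were not tested. EdgeR called 2 of 10605 genes (0.0189%) in dentate granule-like nuclei, 2 of 6606 genes (0.0303%) in CA1 pyramidal-like, 1 of 5886 genes (0.017%) in CA3 pyramidal-like, 2 of 11335 genes (0.0176%) in inhibitory neuron-like and 22 of 5916 genes (0.372%) in astrocyte-like nuclei, of which 15 (0.254%) were lower in trained nuclei. None of the 8 genes was among them in the 4 neuronal classes. Both trained libraries lay below both untrained ones in 3 of the 8 in dentate granule-like nuclei (all genes 19.3%), 1 in CA1 pyramidal-like (15.4%), 0 in CA3 pyramidal-like (14.7%), 3 in inhibitory neuron-like (19.1%) and 7 in astrocyte-like nuclei (21.8%). In dentate granule-like nuclei the 8 genes together had 2449 and 2192 CPM in Trained 1 and 2, against 3108 and 2486 CPM in Untrained 1 and 2. In CA1 pyramidal-like nuclei they had 2660.0 and 2095 CPM in Trained 1 and 2, against 2610.0 and 2082 CPM in Untrained 1 and 2, where the groups overlapped, and in astrocyte-like nuclei 2297 and 2579 CPM in Trained 1 and 2, against 4064 and 3416 CPM in Untrained 1 and 2, where they did not.

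The call that touched these genes was Ubb in astrocyte-like nuclei. It had 292 and 450.2 CPM in Trained 1 and 2, against 955 and 578 CPM in Untrained 1 and 2. These levels rest on 14 and 92 UMIs in Trained 1 and 2 and 357 and 182 in Untrained 1 and 2, in 54 and 203 nuclei in Trained 1 and 2 and 389 and 310 in Untrained 1 and 2. Both trained libraries were below both untrained ones, and the log2 difference was -0.93 (SE 0.25, edgeR adjusted p = 0.0487). EdgeR also called Ubb with the size factors of DESeq2 (-0.93, adjusted p = 0.0475) and with replicate numbers paired crosswise (-1.05, adjusted p = 0.0112). The call was lost with DESeq2 (-0.97), with no filter (-1.01), after thinning (-0.86), with the replicate number as a block (-0.83), without the deepest nuclei (-0.98), and without Trained 1 (-0.74), Trained 2 (-1.46) or Untrained 1 (-0.52). Hspe1 in the same nuclei stood at -1.77 (SE 0.52, edgeR adjusted p = 0.0953) from 2 and 6 UMIs in Trained 1 and 2 and 44 and 32 in Untrained 1 and 2, and Hsp90aa1 at -0.77 (SE 0.24). In these nuclei 7 of the 8 genes had fitted differences below 0, with a median of -0.64 against -0.02 over all genes. The abundant cytoplasmic mRNAs moved with them, with a median of -0.57, 18 of 19 below 0 and 2 called lower, as did the mitochondrially encoded mRNAs at -0.59, with 11 of 12 below 0. The nuclear-retained RNAs had a median of 0.23, with 3 of 10 below 0. Their part in the result was not tested.

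In the neuronal classes Ubb stood at -0.53 (SE 0.20) in dentate granule-like, -0.30 (SE 0.25) in CA1 pyramidal-like, -0.46 (SE 0.27) in CA3 pyramidal-like and -0.51 (SE 0.22) in inhibitory neuron-like nuclei. Untrained 1 was the highest library in each: dentate granule-like nuclei had 354 and 406 CPM in Trained 1 and 2, against 741 and 395 CPM in Untrained 1 and 2, and CA1 pyramidal-like nuclei had 412 and 409 CPM in Trained 1 and 2, against 649 and 336 CPM in Untrained 1 and 2. Without Untrained 1 the difference was -0.03 in dentate granule-like, 0.25 in CA1 pyramidal-like, -0.08 in CA3 pyramidal-like and 0.06 in inhibitory neuron-like nuclei. Without Untrained 2, edgeR called Ubb at -0.91 in dentate granule-like nuclei (adjusted p = 0.0275), at -0.91 in inhibitory neuron-like nuclei (adjusted p = 0.0235) and at -1.25 in astrocyte-like nuclei (adjusted p = 0.00994). The excess of Ubb in Untrained 1 was thus present in every class tested and in the pool.

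Across the 32 sums of 8 classes in 4 libraries, each of the 8 genes varied with the mean of the other 7. Pearson's r was 0.818 for Hspa8, 0.712 for Hspe1, 0.697 for Hspa5 and 0.634 for Ubb, and 0.598, 0.562, 0.502 and 0.491 for Hsp90aa1, Hsp90ab1, Dnaja1 and Hspd1. The genes most like the mean of the 8 over these sums, among 4060 with at least 50 CPM on average, were Ndufb9 (r = 0.878), Rpl37 (r = 0.877), Rpl26 (r = 0.869), Pebp1 (r = 0.867) and Cox4i1 (r = 0.865). Ndufb9 and Cox4i1 encode subunits of the respiratory chain, Rpl37 and Rpl26 ribosomal proteins, and Pebp1 a phosphatidylethanolamine-binding protein. The sums share libraries, depth and free RNA, so the values are descriptions.

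Counts of some of these genes may be split with near-identical copies. GENCODE vM21 names 6 pseudogenes of Hspe1, 5 of Hspd1 and 1 of Dnaja1. Ubb consists of repeats of the ubiquitin unit, which other genes also carry, so its level is uncertain.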

How the data were processed

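Hippocampal nuclei went through 10x Genomics Chromium 3' chemistry (v3.1 in the labels) in 4 libraries. The authors deposited UMI counts for each gene in each barcode. Per the file headers the tables came from Cell Ranger 7.0.0, whereas the submitters' processing notes name Cell Ranger 8, STAR and the GRCm39 build, and the mismatch could not be settled. Promoters come from RefSeq in another build, GRCm38.p6, and were joined by symbol, so no position was compared with the counts.

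The 8 genes, the 14 gene lists (180 genes, of which 179 were found) and the class markers were chosen with earlier results of these data known. Barcodes with at least 600 UMIs were summed as nuclei and those with fewer than 400 UMIs as free RNA. A nucleus took a class when at least 2 of its markers each exceeded the free RNA share (Poisson tail under 0.05), the summed -log10 p was at least 3 and the next class was at least 1.5 lower, thresholds set after the data were seen. Of 13 classes, 75 markers assigned and 55 others checked the class. Nuclei that met 2 classes were left out where neither led by that margin. No doublet caller was run; leaving out the deepest 2% of nuclei stands in its place. Class names rest on these markers and are written as like names.

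Counts summed per library were tested in edgeR 4.0.16 (R 4.3.3, limma 3.58.1) by the quasi-likelihood test after filterByExpr and TMM scaling, and p was adjusted over all genes by the Benjamini-Hochberg method at 0.05. Log2 differences and their SE come from that fit. The fits of training in nuclei, of nuclei against pool and of the interaction were run on simulated counts. Those counts had the same spread for every gene and no difference between libraries. They therefore do not cover the class fits or the spread between the real libraries. Nuclei against pool, the interaction and neuronal-like against glial-like nuclei had the library as a block. Likeness used log2(CPM + 10) over genes with a mean of at least 50 CPM. Beside the 8 genes, up to 3 genes of each list with the smallest p in nuclei could be named, and the text gives some of them. Python 3.11.15, numpy 2.4.6, scipy 1.17.1, pandas 2.3.3 and matplotlib 3.10.9 were used for the rest. Library sizes of 23155826 to 39749125 UMIs and the number of nuclei in a class set the precision, and the counting intervals cover counting error alone.

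The replicate numbers were taken as names. Deviations of same-numbered sums correlated at 0.0668 in nuclei and -0.194 in the pool across genes. These values do not show a pairing and, with so few libraries, cannot exclude it. Alternatives were DESeq2 1.42.0, its size factors in edgeR, no filter on low counts, each library left out, a block of replicate number or no library block, at least 1000 UMIs and 500 genes, the deepest 2% left out, nuclei thinned to 600 UMIs, a gate of 3 markers and a narrower pool (above 250 and under 400 UMIs). Nuclei of 600 to under 800 UMIs, a crossed pairing and 2 other depth steps were added after the data were seen. Some genes that this rule names are not reported here.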

Additional observations from a re-analysis of the deposited data

Results flagged for a closer look

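Genes were picked for this section because their groups were apart in opposite directions in different classes, so those directions follow from the choice. Hspa5, the HSP70 of the endoplasmic reticulum, was picked for 4 classes. Its training difference in dentate granule-like nuclei, where the groups overlapped, was -0.09 (SE 0.22). It was -0.46 on the log2 scale in CA1 pyramidal-like nuclei, with 80.3 and 69.1 CPM in Trained 1 and 2, against 104 and 91.5 CPM in Untrained 1 and 2. It was -0.55 in inhibitory neuron-like nuclei and -0.78 in astrocyte-like nuclei, with both trained libraries lower. In CA3 pyramidal-like nuclei it was 0.13 (SE 0.34), with 84.2 and 78.0 CPM in Trained 1 and 2, against 68.8 and 74.4 CPM in Untrained 1 and 2. Over all genes, both trained libraries were lower in 15.4% in CA1 pyramidal-like, 19.1% in inhibitory neuron-like and 21.8% in astrocyte-like nuclei.

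Dnaja1, the J-domain partner of HSC70, was lower in both trained libraries in dentate granule-like nuclei (-0.26, as were 19.3% of all genes) and in inhibitory neuron-like nuclei (-0.31, 19.1%). In astrocyte-like nuclei it was higher in both, at 0.21, with 250.6 and 206 CPM in Trained 1 and 2, against 198 and 178 CPM in Untrained 1 and 2, from 12 and 42 UMIs in Trained 1 and 2 and 74 and 56 UMIs in Untrained 1 and 2. Its groups overlapped in CA1 pyramidal-like (-0.01) and CA3 pyramidal-like nuclei (-0.27). How many of all genes were higher in both trained libraries is not given here. None of the values in this section passed the adjusted p in edgeR. The difference between classes was not tested, and nothing is read from the opposite directions.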

How the results depend on the processing

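All 8 genes were lower in nuclei than in the pool under every alternative run. Genes called by edgeR in trained against untrained nuclei numbered 0, and under the alternatives 4 with DESeq2, 159 with no filter (1 of the 8), 1 with at least 1000 UMIs and 16 in nuclei of 600 to under 800 UMIs. In the pool the numbers were 270 with DESeq2, 1363 with no filter and 817 with the narrower pool. For the interaction they were 19 with DESeq2, 603 with no filter, 2 with at least 1000 UMIs, 5 after thinning, 102 at 600 to under 800 UMIs and 104 with the narrower pool. Neuronal-like against glial-like nuclei gave 1405 with DESeq2, 1483 without the library block and 1041 at 600 to under 800 UMIs, with 0 of the 8 in these settings, after thinning and with no filter. Dentate granule-like nuclei gave 1 with DESeq2 and after thinning and 0 at 600 to under 800 UMIs or with 3 markers. CA3 pyramidal-like nuclei gave 2 with no filter or without the deepest nuclei. Inhibitory neuron-like nuclei gave 5 with no filter and 1 with DESeq2, its size factors, at least 1000 UMIs, thinning, 600 to under 800 UMIs or 3 markers. Astrocyte-like nuclei gave 2 with DESeq2, 6 with no filter and 3 after thinning or without the deepest nuclei, with 0 of the 8 in each.

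With the replicate number as a block, genes called were 0 in nuclei, 843 in the pool, 4 in CA1 pyramidal-like, 2 in CA3 pyramidal-like, 6 in inhibitory neuron-like and 11 in astrocyte-like nuclei, with 0 of the 8. The check above did not show that the numbers pair libraries and cannot exclude it. Crossed pairing gave 0 in nuclei, 0 in the pool and 41 in astrocyte-like nuclei, where Ubb, alone of the 8, was among them (-1.05). It gave 3, 2, 2 and 3 in dentate granule-like, CA1 pyramidal-like, CA3 pyramidal-like and inhibitory neuron-like nuclei.

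Leaving out 1 library at a time, genes called ranged from 1 to 189 in nuclei (0 to 1 of the 8), 86 to 4974 in the pool (0 to 6), 8 to 3059 for the interaction (0 to 2), 1605 to 2890 for neuronal-like against glial-like (0 to 4), 2 to 7 in dentate granule-like (0 to 1), 0 to 5 in CA1 pyramidal-like, 0 to 3 in CA3 pyramidal-like, 1 to 28 in inhibitory neuron-like (0 to 1) and 0 to 33 in astrocyte-like nuclei (0 to 1). The interaction then ranged from -0.19 to 0.41 for Hspa8, -0.16 to 0.44 for Hsp90aa1, -0.17 to 0.56 for Hsp90ab1, -0.14 to 0.39 for Hspe1, -0.0091 to 0.48 for Hspd1, -0.10 to 0.41 for Hspa5 and -0.20 to 0.35 for Ubb. Neuronal-like minus glial-like ranged from -0.067 to 0.15 for Hspe1 and -0.19 to 0.071 for Hspa5, and trained minus untrained from -0.69 to 0.25 for Ubb in CA1 pyramidal-like and -0.91 to 0.056 in inhibitory neuron-like nuclei. Signs also turned in the interaction with at least 1000 UMIs (Hspa8 -0.041, Hsp90ab1 -0.0067, Hspe1 -0.089, Ubb -0.10), after thinning (Hspe1 -0.0051) and at 600 to under 800 UMIs (Hspa8 -0.14, Hsp90aa1 -0.11, Hspe1 -0.11, Hspd1 -0.029, Hspa5 -0.072, Ubb -0.17), and for neuronal-like minus glial-like without the block (Hspe1 -0.024) and at 600 to under 800 UMIs (Hspa5 0.24). The cause was not tested. Shares of all genes called with a library left out are not given here, so nothing is read from those counts of the 8. The median of all genes was 0.20 with no filter and -0.03 with it in nuclei against pool, 0.09 and -0.04 in neuronal-like against glial-like nuclei, -0.12 and -0.02 in CA1 pyramidal-like, and -0.18 and -0.02 in astrocyte-like nuclei. Oligodendrocyte-like nuclei, 21 of them in Trained 1, had no fit with all 4 libraries; without Trained 1, Ubb was -0.55 (SE 0.53, edgeR adjusted p = 0.996), and settings with too few nuclei in a class were not run.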

Other observations

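Classes with fewer than 30 nuclei in some library had no test of training with all 4 libraries. The 8 genes together had 2178 and 2523 CPM in oligodendrocyte-like nuclei of Trained 1 and 2, against 4379 and 2740 CPM in those of Untrained 1 and 2. Ependymal-like nuclei had 2615 and 2703 CPM in Trained 1 and 2, against 3182 and 2873 CPM in Untrained 1 and 2. Endothelial-like nuclei had 2677 and 2957 CPM in Trained 1 and 2, against 4349 and 3732 CPM in Untrained 1 and 2, the trained values resting on 10 and 63 UMIs. Microglia-like nuclei, with 5 and 35 nuclei in Trained 1 and 2 and 51 and 22 in Untrained 1 and 2, had 1669 and 2189 CPM in Trained 1 and 2, against 3216 and 2744 CPM in Untrained 1 and 2.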
